A study of Homo sapiens with 2 samples.

Results

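Integrins and the proteins of focal adhesions were examined in 293T cells treated with the ROCK inhibitor Y27632, as 30 genes of the 11057 named genes with a value on either array. They were all genes whose current symbol starts with ITGA or ITGB, apart from the ITGB1BP and ITGB3BP genes, together with a list of 12 adhesion proteins. Of 39 protein-coding genes that this takes in, 36 had a named probe and 30 had a value. The 30 were 15 alpha subunits, 5 beta subunits and 10 focal adhesion proteins. No probe was named for ITGA1 or for the talin genes TLN1 and TLN2, and ITGA9, ITGAM, ITGB2, ITGB6, ITGB8 and ITGBL1 had a probe without a value on either array.

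293T is an established line of human embryonic kidney cells that carries the SV40 large T antigen. Each of 2 dual-colour arrays set RNA from untreated 293T cells, given a time of 0 h and no agent and labelled with Cy5, beside RNA from 293T cells given 10 µM Y27632 and labelled with Cy3. One array held cells treated for 3 h and the other cells treated for 6 h. The sample titles carry the word control and a time, and the treatment was read from the source name and agent of the Cy3 channel. All cells were kept in the same serum-supplemented medium, and the labels name no vehicle for the untreated cells. Whether a single control RNA served both arrays is not stated, so the arrays may share it, and the time in culture cannot be told apart from the inhibitor. With 1 array per time and no dye swap, no value has a replicate and no test between conditions was made.

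An integrin is a pair of 1 alpha and 1 beta subunit that spans the plasma membrane, binds matrix or a partner cell on the outside and couples to actin on the inside. Talin and kindlin bind the beta tail, and paxillin, the kinase FAK, the ILK, PINCH and parvin complex, zyxin and tensin gather around them as a focal adhesion. Large focal adhesions need actomyosin tension, which the kinases ROCK1 and ROCK2 raise by phosphorylating myosin light chain and its phosphatase. ROCK inhibitors are known to dissolve stress fibres and large focal adhesions in adherent cells. The arrays read the transcripts and not the adhesions.

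Values are log ratios of the channels, read as log2 units, with the sign as deposited. Which channel is the numerator is not given in the sources used here, so a positive value is not called a rise, nor a negative one a fall. The only error at hand for a single gene is the spread between different probes of a gene, with SDs of 0.31 (3 h) and 0.33 (6 h) across 572 genes. Of the 30 genes, 28 had 1 measured probe and PXN and ITGB4 had 2. The SD is that of a single probe and was used unchanged for these means of 2 probes, for which it is too wide. A ratio carries no level, so neither the identity of the cells nor which integrins they express could be read from these values. The median over all genes was 0.02 at each time, with an SD across genes of 0.36 at each. Of 5 markers of kidney epithelium, 4 were negative at 3 h and 3 at 6 h, against 47.5% and 47.3% of all genes. Their medians were −0.44 and −0.04. CDH16, at −0.44 and 0.18, AQP1, at −0.50 and 0.41, and PAX2, at 0.06 and −0.15, changed sign between the arrays.

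No member lay 1 unit from 0, a 2-fold difference, at 3 h, at 6 h or in the difference of the times, where 1.61%, 1.43% and 1.2% of all genes did. At 1.5-fold, 1 of 29 members was past the size at 3 h, the alpha subunit gene ITGA4, where 9.36% of all genes were. At 6 h, 1 of 29 was past it, the adaptor gene LPP, where 9.86% of all genes were. The median of the members was −0.09 at 3 h, with 17 of 29 negative, against 47.5% of all genes. It was −0.01 at 6 h, with 15 of 29 negative, against 47.3% of all genes. The SD across members was 0.31 at 3 h and 0.24 at 6 h. At 3 h, 11 of 29 members lay farther from 0 than the probe SD, against 33% of all genes, and at 6 h 4 of 29 did, against 30.4%.

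**Figure D1:**
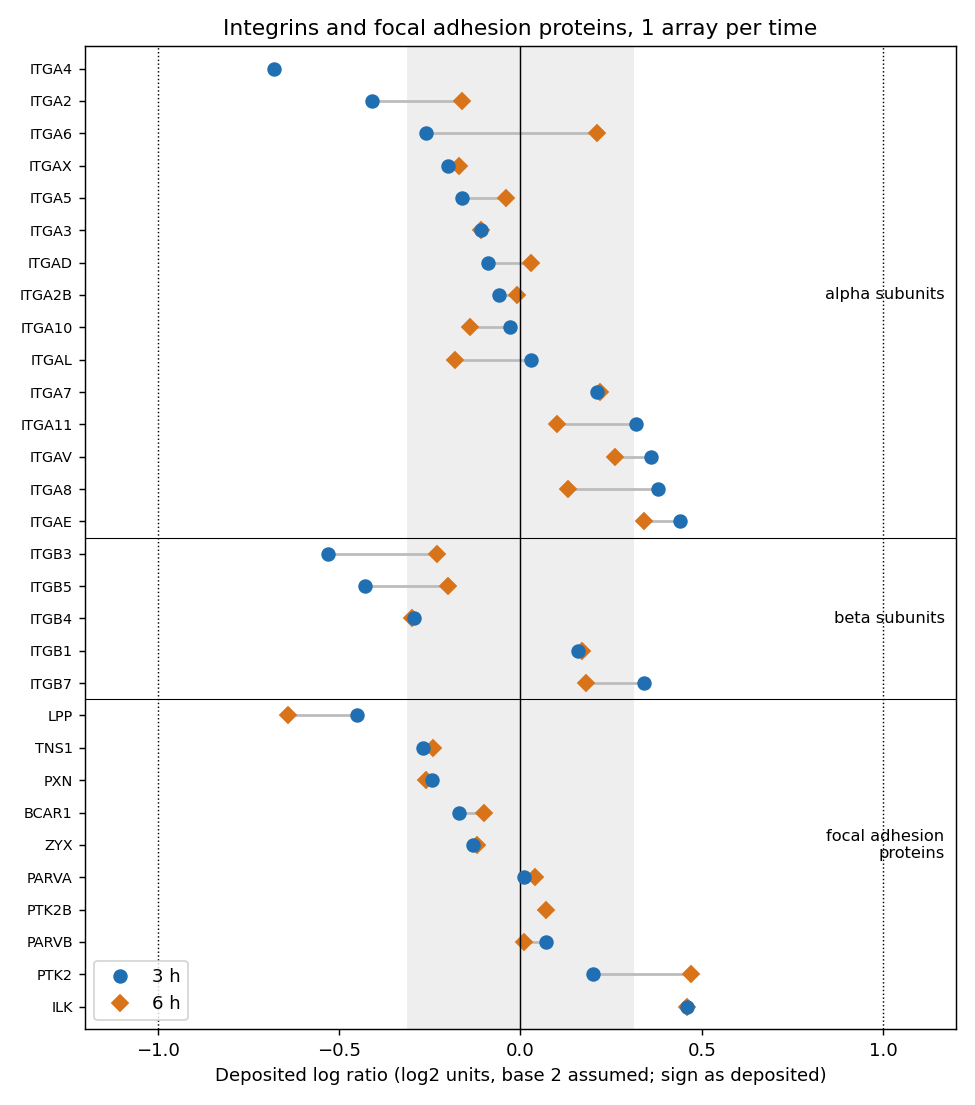
Log ratio of each of the 30 genes (rows, by class) at 3 h (blue circles) and 6 h (orange diamonds) in log2 units with the deposited sign, 1 array per time; the grey band spans the probe SD of 0.31 on each side of 0 and dotted lines mark 1 unit. No gene reaches a dotted line, ITGA4 at −0.68 and LPP at −0.64 lie farthest out, and ITGA6 crosses 0.

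The windows before the RefSeq start sites are shown for 4 genes, chosen because they lay farthest out: ILK on the positive and LPP on the negative side of both arrays, ITGA4 on 1 array, and ITGA6 in the difference between arrays. The coordinates are those of build GRCh38.p14, all on the plus strand, and each window ends at the base before a start. The ILK window is chr11:6603617-6603773, shortened where it reached the neighbouring gene RRP8. The LPP window is chr3:188212462-188212711, picked as the 1 of its 7 windows with a CArG box, and it lies downstream of other LPP start sites. The ITGA4 window is chr2:181457136-181457385 and the ITGA6 window is chr2:172427086-172427335, before the more upstream of 2 starts. Capitals mark matches, on either strand, to the CArG box of the actin-regulated factor SRF, to GGAATG, the core bound by the TEAD partners of YAP, to TGANTCA, the AP-1 site, and to GGGCGG, the GC box.

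ILK: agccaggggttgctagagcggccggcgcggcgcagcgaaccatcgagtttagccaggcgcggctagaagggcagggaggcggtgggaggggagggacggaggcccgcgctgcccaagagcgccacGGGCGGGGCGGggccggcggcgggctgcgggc

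LPP: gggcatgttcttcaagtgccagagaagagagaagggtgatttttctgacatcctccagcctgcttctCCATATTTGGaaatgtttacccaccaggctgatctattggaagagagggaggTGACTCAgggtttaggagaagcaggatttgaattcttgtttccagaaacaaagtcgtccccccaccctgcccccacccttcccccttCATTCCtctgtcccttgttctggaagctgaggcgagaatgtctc

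ITGA4: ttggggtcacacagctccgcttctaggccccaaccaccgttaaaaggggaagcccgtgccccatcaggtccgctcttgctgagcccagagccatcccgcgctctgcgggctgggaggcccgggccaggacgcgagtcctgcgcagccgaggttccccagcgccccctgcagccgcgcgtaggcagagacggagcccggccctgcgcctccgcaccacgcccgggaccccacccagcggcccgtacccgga

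ITGA6: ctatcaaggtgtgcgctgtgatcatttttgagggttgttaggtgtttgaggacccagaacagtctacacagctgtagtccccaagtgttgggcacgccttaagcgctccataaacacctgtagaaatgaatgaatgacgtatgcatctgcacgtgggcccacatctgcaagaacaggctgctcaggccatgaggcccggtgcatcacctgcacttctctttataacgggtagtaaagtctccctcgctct

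The LPP window, picked for its CArG box, also held an AP-1 match and a GGAATG on the minus strand, and the matches do not overlap. The ILK window held 2 GC boxes that share a base, and the windows shown for ITGA4 and ITGA6 held none of these letters. The other ITGA6 window, which directly follows the one shown, held 3 GC boxes. RefSeq windows of 250 bases were at hand for 20 of the 30 genes, 41 windows in all because several genes have more than 1 start. A CArG box was in 1 of the 41, that of LPP, and in 1.16% of all 35116 windows. GGAATG was in 19.5% of the members' windows and 11.9% of all, the AP-1 site in 9.76% and 6.57%, and the GC box in 48.8% and 42.6%. Of the 4 windows with the AP-1 site, 3 were those of LPP, and without the LPP windows its share was 2.94% of 34, below that of all windows. The share of GGAATG without the LPP windows was 17.6% of 34. The 2 LPP windows with GGAATG overlap and hold the same site. The GGAATG matches fell in windows of ITGA5, ITGA10, ITGB1, LPP, PXN and TNS1. Of these genes ITGB1 was positive at both times and the others were negative at both. Of all genes, 47.5% were negative at 3 h and 47.3% at 6 h, each time taken alone. The share negative at both times was not counted, and a relation of the motif to the sign was not tested. The windows of the members had a median GC content of 62.8%, against 58% over all. Which start these cells use was not measured.

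Among the alpha subunits, the collagen receptors form a group that pairs with ITGB1. ITGA2, of the collagen receptor of platelets and epithelia, had a log ratio of −0.41 at 3 h and of −0.16 at 6 h. ITGA11, a receptor of fibroblasts for fibrillar collagen, had 0.32 and 0.10. ITGA10, found in cartilage, had −0.03 and −0.14. ITGA2 and ITGA11 thus lay on opposite sides of 0 at 3 h, beyond the probe SD, and both lay within it at 6 h.

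The laminin receptor subunits were mixed. ITGA6, which pairs with ITGB1 or, in hemidesmosomes, with ITGB4, had −0.26 at 3 h and 0.21 at 6 h. ITGA3 had −0.11 at each time. ITGA7, the laminin receptor of muscle, had 0.21 and 0.22. ITGA6 moved from the negative to the positive side between the arrays, by 0.47, while ITGA3 and ITGA7 had the same values on both to within 0.01. All of these log ratios lay within the probe SD of their array.

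Subunits that bind the RGD sequence of fibronectin and vitronectin also had both signs. ITGAV, the partner of several beta subunits, had 0.36 at 3 h and 0.26 at 6 h. ITGA8, a receptor of the developing kidney, had 0.38 and 0.13. Both lay beyond the probe SD at 3 h and within it at 6 h. ITGA5, of the main fibronectin receptor, had −0.16 and −0.04. The platelet subunit gene ITGA2B had −0.06 and −0.01. ITGA5 and ITGA2B lay within it at both times.

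ITGA4, whose product binds fibronectin and VCAM1 in lymphocytes, had −0.68 at 3 h, the value farthest from 0 of any member, a 1.6-fold difference. It had no value at 6 h. Of all genes, 3.11% lay lower at 3 h. Named probes with a value on the 3 h array only were past 1.5-fold in 30.5% of 383 cases, against 8.96% of the 11134 probes with a value on both arrays. The part of this in the value of ITGA4 was not tested.

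The subunits best known from leukocytes did not lie on a common side. ITGAE, which with ITGB7 binds E-cadherin on T cells in epithelia, had 0.44 at 3 h and 0.34 at 6 h. ITGAL, of the lymphocyte receptor for ICAM1, had 0.03 and −0.18. ITGAX and ITGAD, neighbouring genes on chromosome 16, lay at −0.20 and −0.09 on the 3 h array and at −0.17 and 0.03 on the 6 h array. ITGAE lay beyond the probe SD on both arrays, and the other members of this group lay within it. Integrins of leukocytes and platelets, 6 genes with ITGB7 and ITGA2B, had a median of −0.015 at 3 h and of 0.01 at 6 h. ITGA4 and ITGB3, both negative where measured, were not counted among these 6. The leukocyte markers CD3E, CD14 and SPI1 ranged from −0.64 to 0.03 at 3 h and from −0.42 to 0.02 at 6 h, and PTPRC had no value. Olfactory receptor genes, which most cells do not transcribe, had a median of −0.17 over 154 genes at 3 h and one of −0.22 over 133 at 6 h, farther below 0 than those of the integrins, −0.075 and −0.01. These values were set beside each other without a test.

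The beta subunits split into those with a negative and those with a positive value. ITGB3, the vitronectin receptor subunit of platelets, endothelium and osteoclasts, had −0.53 at 3 h and −0.23 at 6 h. ITGB5, another vitronectin receptor subunit, had −0.43 and −0.20. ITGB4, of the hemidesmosome, had −0.295 and −0.30. Its 2 probes gave −0.24 and −0.35 on the 3 h array and −0.08 and −0.52 on the 6 h array, so the equal means hold a wider spread of the probes at 6 h. ITGB1, the subunit shared by most matrix receptors, had 0.16 and 0.17. ITGB7, a subunit of lymphocyte receptors, had 0.34 and 0.18. ITGB3, ITGB5 and ITGB7 lay beyond the probe SD at 3 h, and no beta subunit did at 6 h. ITGB4, a mean of 2 probes, was set against the SD of a single probe, which is too wide for it. The 3 endothelial markers measured, which include no integrin, were all negative at both times, from −0.72 to −0.11 at 3 h and from −0.55 to −0.42 at 6 h. The platelet markers had both signs, with 2 of 4 positive at 3 h, from −0.10 to 0.64, and 1 of 3 at 6 h, from −0.38 to 0.26. Among all genes, 47.5% were negative at 3 h and 47.3% at 6 h. Both channels of each array held RNA from the same established kidney line, not from endothelium or platelets. A relation of these markers to the values of ITGB3 and ITGB5 was not tested.

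The subunits of a receptor were compared as pairs, 24 in all as known for human integrins, of which 16 had both subunits measured at 3 h and 14 at 6 h. At 3 h the subunits had the same sign in 7 pairs and opposite signs in 9, and at 6 h in 7 and 7. ITGB1 is in 10 of the 16, so the pairs are not independent. Among the alpha-v receptors, ITGAV lay above ITGB3 by 0.89 at 3 h and 0.49 at 6 h, and above ITGB5 by 0.79 and 0.46. ITGAV and ITGB1, the third alpha-v pair measured, had the same sign and lay 0.20 and 0.09 apart. ITGAE and ITGB7, by contrast, lay within 0.10 at 3 h and 0.16 at 6 h of each other. ITGA6 and ITGB4 lay 0.035 apart at 3 h and 0.51 apart at 6 h. The largest gap at 3 h was that of ITGA4 and ITGB7, −1.02, and it rests on the ITGA4 value. Each gap other than that of ITGB4 compares 1 probe with 1 probe, each with the probe SD above.

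**Figure D2:**
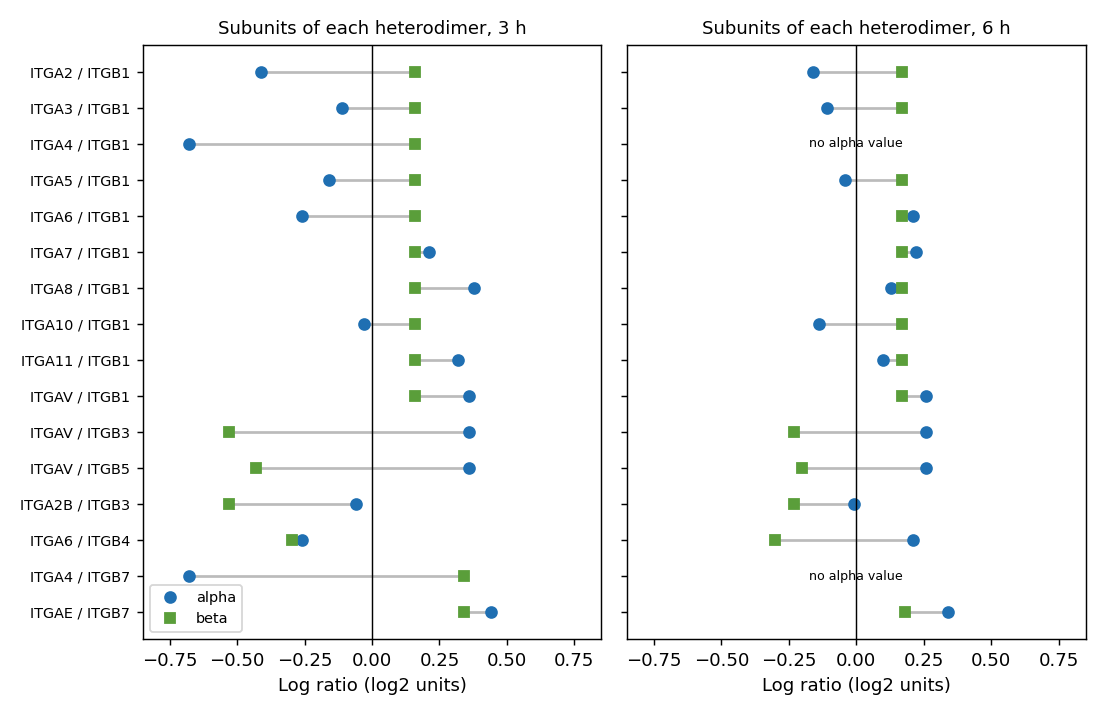
Log ratios in log2 units, with the deposited sign, of the alpha (blue circles) and beta subunit (green squares) of each of the 16 heterodimers with both subunits measured at 3 h, with 3 h on the left and 6 h on the right, 1 array each. ITGAV lies right of 0 and its partners ITGB3 and ITGB5 left of it in both panels, and the 2 pairs with ITGA4 have no alpha value at 6 h.

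Among the focal adhesion proteins, ILK and its partners link the beta tail to actin. ILK, the pseudokinase scaffold that binds the beta tail region and the parvins, had 0.46 on both arrays. PARVA and PARVB, the actin-binding parvins, lay at 0.01 and 0.07 on the 3 h array and at 0.04 and 0.01 on the 6 h array. TNS1, a tensin that joins beta tails to actin in mature adhesions, had −0.27 and −0.24. ILK lay beyond the probe SD at both times and 9.02% and 9.64% of all genes lay higher, while its parvin partners lay near 0. The sign of PARVA at 3 h and of PARVB at 6 h turned when the arrays were centred on the median gene.

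The signalling members had both signs. PTK2, which encodes FAK, the tyrosine kinase activated when integrins cluster, had 0.20 at 3 h and 0.47 at 6 h. Its relative PTK2B, or PYK2, had no value at 3 h and 0.07 at 6 h. PXN, the paxillin scaffold that FAK phosphorylates, had −0.245 and −0.26, and its probes were close, at −0.25 and −0.24 on the 3 h array and −0.32 and −0.20 on the 6 h array. BCAR1, the Cas docking protein phosphorylated on stretch, had −0.17 and −0.10. PTK2 at 6 h was the 1 value of this group beyond the probe SD, which is that of a single probe and too wide for the mean of PXN. The kinase and its substrates PXN and BCAR1 lay on opposite sides of 0 at each time.

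The LIM proteins LPP and ZYX shuttle between adhesions and the nucleus, and zyxin leaves adhesions when tension drops. LPP had −0.45 at 3 h and −0.64 at 6 h, a 1.56-fold difference at 6 h, where 3.27% of all genes lay lower. ZYX had −0.13 and −0.12. LPP therefore lay beyond the probe SD at both times and ZYX within it. LPP is also the 1 gene of the 20 with a promoter window that holds a CArG box, and it has 7 of the 41 windows.

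The difference of the arrays, 6 h minus 3 h, drops what a shared dye bias or control adds to both. Over the 28 genes with both values its median was 0.01 and its SD 0.17, against −0.01 and 0.29 over all genes. None reached 1.5-fold, where 5.75% of all genes did. The probe SD of this difference was 0.30, and 2 of 28 members lay beyond it, ITGA6 at 0.47 and, by a margin in the fourth decimal, ITGB3 at 0.30, against 19.9% of all genes. Of all genes, 4.91% had a higher difference than ITGA6, and 9.43% differed at least as far in either direction. PTK2 at 0.27, ITGA2 at 0.25 and ITGB5 at 0.23 followed, and ITGA8 at −0.25, ITGA11 at −0.22, ITGAL at −0.21 and LPP at −0.19 lay lowest. ITGA2, ITGB3 and ITGB5, negative at 3 h, were nearer to 0 at 6 h, as were the positive ITGA8 and ITGA11, while LPP and PTK2 lay farther out. Array and time of treatment cannot be told apart here.

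**Figure D3:**
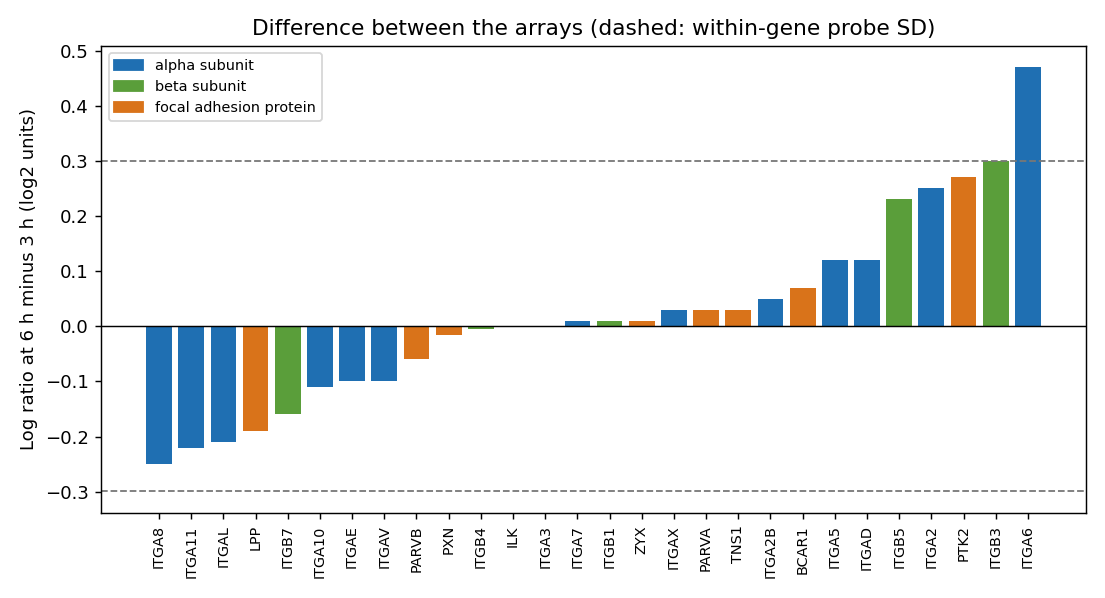
Log ratio at 6 h minus log ratio at 3 h in log2 units for the 28 genes with both values, ordered by size and coloured by class, with dashed lines at the probe SD of 0.30. ITGA6 stands above the upper line at 0.47, ITGB3 reaches it, and no bar reaches the lower line.

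Other genes of the adhesion were taken as 4 lists. Of 40 other adaptors, such as vinculin, filamin and kindlin, 24 had a value, and 17 were negative at 3 h and 19 at 6 h, against 47.5% and 47.3% of all genes, with medians of −0.09 and −0.135. LIMS2, a PINCH partner of ILK, had −0.42 and −0.40, and the zyxin relative TRIP6 had −0.36 and −0.42. APBB1IP, or RIAM, which brings talin to integrins, had −0.22 and −0.28. On the positive side, the zyxin partner gene TES had 0.44 and 0.31, FHL2 0.40 and 0.23, and the paxillin relative LPXN 0.11 and 0.35. None of the 24 was past 1.5-fold at either time, where 9.36% and 9.86% of all genes were. ILK and LIMS2 thus lay on opposite sides of 0. The other parts of the ILK complex on this list were chosen after their values were seen: the PINCH gene LIMS1 had −0.18 and −0.51, the leukocyte parvin gene PARVG −0.26 and −0.15, and RSU1, which binds PINCH, 0.06 and −0.15. Of the complex, ILK alone lay beyond the probe SD on the positive side at either time.

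Of 40 signalling genes downstream of integrins, 31 had a value at 3 h and 32 at 6 h, and the balance was on the positive side. At 3 h 23 were positive, with a median of 0.09, and at 6 h 21 were, with a median of 0.125, against 51.3% and 51.5% of all genes. CAPN2, the calpain that cleaves talin, had 0.50 and 0.55. GIT2, which binds paxillin, had 0.44 and 0.43, and the adaptor gene SHC1 0.41 and 0.49. EFS, a relative of BCAR1, had −0.41 and −0.91, the SRC inhibitor gene CSK −0.35 and −0.21, and CASS4, another Cas protein, −0.20 and −0.21. BCAR1, of the same Cas family, was also negative at both times, but EFS and CASS4 were named here because they were negative at both. BCAR1 and CASS4 lay within the probe SD at both times, and their relative NEDD9 had no value. EFS was 1 of 2 genes of the 32 past 1.5-fold at 6 h, against 9.86% of all genes, and none of the 31 was at 3 h, against 9.36%.

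Integrin ligands, 28 of 34 with a value at 3 h and 25 at 6 h, had medians of −0.145 and 0.02. At 3 h 20 of 28 were negative and at 6 h 12 of 25, against 47.5% and 47.3% of all genes. MADCAM1, a ligand of the ITGA4 and ITGB7 receptor, had −0.68 and −0.43, EDIL3, a ligand of alpha-v receptors, −0.51 and −0.68, and vitronectin, VTN, −0.32 and −0.61. The laminin chain gene LAMB1 had 0.50 and 0.62, ICAM2 0.32 and 0.52, and periostin, POSTN, 0.21 and 0.98. On the 6 h array 4 of the 25 ligands passed 1.5-fold, a size that 9.86% of all genes passed there. Only 1 of the 28 ligands passed it on the 3 h array, where the share over all genes was 9.36%. In the difference, 20 of 25 were positive, with a median of 0.14, against 46.9% of all genes.

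Integrin regulators, 14 of 20 with a value, had medians of −0.13 and −0.135, with 10 of 14 negative at each time, against 47.5% and 47.3% of all genes. RAB21, which carries integrins through endosomes, had 0.61 and 0.80, and KRIT1 0.03 and 0.16. On the negative side, RAB11FIP1, of the recycling endosome, had −0.41 and −0.62, BSG −0.20 and −0.17, and SNX17, which returns beta subunits to the surface, −0.19 and −0.14. At each time 2 of the 14 were past 1.5-fold, against 9.36% of all genes at 3 h and 9.86% at 6 h. RAB21 and RAB11FIP1, named as the farthest genes of their list with the same sign at both times, lay farther from 0 at 6 h than any integrin subunit with a value then. ITGA4 had no value at 6 h, and at 3 h, at −0.68, it lay farther out than either. The lowest regulator at 3 h, at −0.70, was not among those named.

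**Figure D4:**
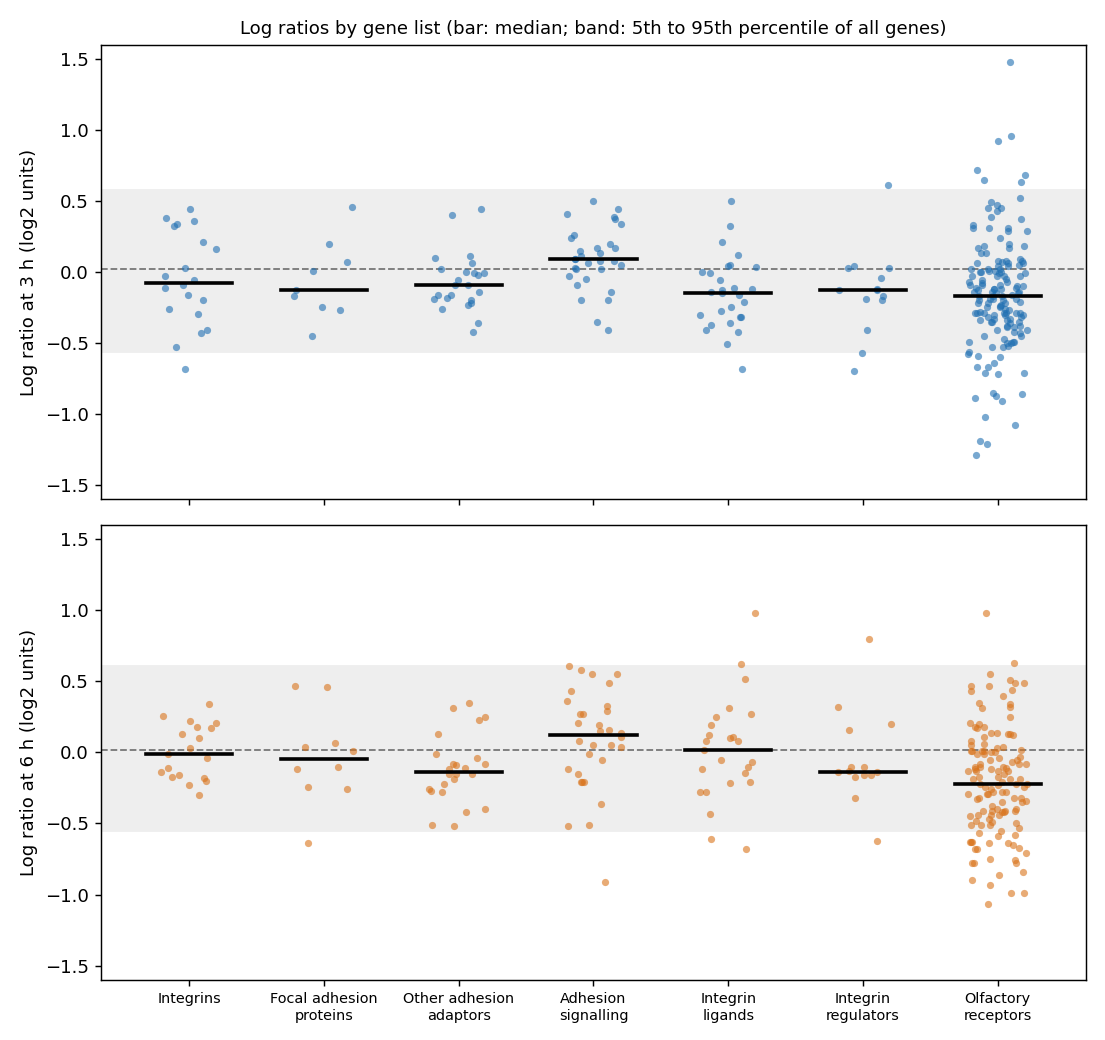
Log ratios in log2 units at 3 h (upper) and 6 h (lower) of the integrins, the focal adhesion proteins, the 4 other adhesion lists and the olfactory receptors; points are genes, black bars medians, the dashed line the median of all genes and the grey band their 5th to 95th percentile. Most integrins and focal adhesion proteins lie in the band at both times, while the olfactory receptors spread widely around medians of −0.17 and −0.22.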

How the data were processed

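Total RNA was amplified by an amino allyl procedure and coupled to Cy3 and Cy5, per the labels' protocols. The authors deposited 1 log value per probe and array, for 24267 probes, taken here as a log2 ratio. No source used here gives the log base, the numerator, the background correction, the normalization or the spot filter. Each array had a median of 0, and 20503 probes had a value at 3 h and 20337 at 6 h. The arrays' number limits the precision of every value.

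The platform annotation named 13395 probes. Of these symbols, 10822 were current in RefSeq (GRCh38.p14), 2446, TNS1 among them, were replaced by the single current symbol that lists them as a synonym, and 127 were left as they were. A gene's value was the mean of its probes, computed with pandas 2.3.3 in Python 3.11.15. The probe SD was pooled over genes that had at least 2 probes with values on both arrays. The calculation was tested on simulated data with changes larger than the value of any member, so changes of the members' size were not covered.

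The members and lists were chosen with earlier results of these data known. Every member with a value is named. Of each other list, the 3 genes farthest from 0 on each side were named if of the same sign at both times, by the smaller of their distances from 0; 2 regulators met this on the positive side. Pairs of subunits, motifs and the windows shown were chosen after the values were seen. Sequences are from RefSeq. Alternatives covered probe summary, centring, scaling, missing values, symbols, threshold, sign and log base.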

Additional observations from a re-analysis of the deposited data

Results flagged for a closer look

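Values on opposite sides of 0 at 3 h and 6 h drew attention to 3 members and 6 lists. With 1 array per time, none of these differences was tested. ITGA6 differed by 0.47, from −0.26 to 0.21. ITGAL differed by −0.21, from 0.03 to −0.18, and ITGAD by 0.12, from −0.09 to 0.03, both within the probe SD of the difference, 0.30. The median difference of the alpha subunits was 0.005, and that of the integrins of leukocytes and platelets was −0.035, although their medians changed sign. The laminin receptor subunits had a median difference of 0.01 over 3 genes, their medians being −0.11 and 0.21. The integrin ligands had a median difference of 0.14 over 25 genes. Among the marker lists, the median difference was −0.13 for 3 neuronal genes and −0.28 for 3 platelet genes. Of the neuronal genes, NEFL had −0.73 at 3 h and −0.69 at 6 h, INA 0.58 and 0.45, and NEFM 0.04 and −0.53.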

How the results depend on the processing

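No member was 1 unit from 0 in any comparison under the median or the farthest probe, centring, scaling, probes on both arrays only, current symbols only or a natural logarithm, an alternative added after the data were seen. Under that base the largest member, ITGA4, would be 0.98 log2 units from 0. Some of these alternatives could change little. With 1 measured probe for 28 of the 30 genes, the farthest probe could alter only PXN and ITGB4. The median of 2 probes equals their mean, so it could alter no member. Keeping only probes on both arrays left out ITGA4 and PTK2B. The threshold of 1.5-fold gave 1 member at 3 h and 1 at 6 h in place of 0. Turning the sign turned the medians to 0.09 at 3 h, 0.01 at 6 h and −0.01 for the difference. With integrin subunits only, also added later, 9 genes were positive at 6 h in place of 14, the list being shorter. No paired analysis was possible because each time has 1 array. No replicate could be left out for the same reason, and spot intensities were not used here, so signal over background is unknown.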
